A study of Mus musculus with 6 samples.

Results

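The genes of MHC class I antigen processing were followed in macrophages cultured from the bone marrow of mice. The set holds 10 genes chosen by symbol, which are H2-K1, H2-D1, B2m, Tap1, Tap2, Tapbp, Psmb8, Psmb9, Psmb10 and Nlrc5, out of 16906 genes in the deposited table, and all 10 were measured. The cells were wild-type and came from C57BL/6 mice, and both groups were grown with macrophage colony-stimulating factor and then received exosomes of epithelial cells at 100 µg/ml for 12 h. In the stretched group (3 libraries) the donor epithelial cells had been cyclically stretched for 6 h, and in the static group (3 libraries) they had not been stretched. No group went without exosomes, so the static group is the reference throughout. The labels do not say what the epithelial cells were or whether replicates came from separate animals, and the spread behind each p-value may therefore be technical. Values of a group are given in the order of its replicates 1, 2 and 3.

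MHC class I molecules show fragments of the proteins made inside a cell to CD8 T cells and natural killer cells. A heavy chain (encoded in C57BL/6 mice by H2-K1 and H2-D1) pairs with beta-2-microglobulin (B2m). The immunoproteasome, which carries the inducible subunits Psmb8, Psmb9 and Psmb10, cuts the peptides, the transporter made of Tap1 and Tap2 carries them into the endoplasmic reticulum, and tapasin (Tapbp) holds the empty class I molecule at that transporter. Interferons and NF-kB raise many of these genes, and Nlrc5, a transactivator of the NLR family, acts on their promoters. In macrophages the pathway also serves to present ingested material.

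The genes lie close together in part, and Psmb9 and Tap1 have neighbouring starts. In RefSeq's GRCm38.p6 annotation, 7 of the 10 genes are on chromosome 17, Psmb10 and Nlrc5 on chromosome 8 and B2m on chromosome 2. Psmb9, Tap1, Psmb8 and Tap2 follow each other within 34292 bases (chr17:34182030-34216321), with Psmb9 on the minus strand and the other 3 on the plus strand. Psmb9 and Tap1 are transcribed away from each other, and their annotated starts enclose 225 bases (chr17:34187331-34187555). Those bases are shown with the 250 bases before the starts that the RefSeq promoter table gives for both heavy chain genes and B2m. They lie before the starts of the light chain, both heavy chains and 2 genes with neighbouring starts. The start used for H2-K1 (position 34000347) lies inside the annotated gene, whose outermost end is at 34000619, and the table holds a second one at 34000333. Each is written 5′ to 3′, on the plus strand except for H2-K1, and capitals mark matches to the motifs searched.
Psmb9 to Tap1: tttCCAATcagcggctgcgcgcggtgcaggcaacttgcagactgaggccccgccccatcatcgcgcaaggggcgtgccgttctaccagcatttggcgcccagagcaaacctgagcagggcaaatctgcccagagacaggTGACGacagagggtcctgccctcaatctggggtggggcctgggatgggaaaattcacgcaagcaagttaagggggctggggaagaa
H2-K1 (chr17:34000348-34000597, minus strand): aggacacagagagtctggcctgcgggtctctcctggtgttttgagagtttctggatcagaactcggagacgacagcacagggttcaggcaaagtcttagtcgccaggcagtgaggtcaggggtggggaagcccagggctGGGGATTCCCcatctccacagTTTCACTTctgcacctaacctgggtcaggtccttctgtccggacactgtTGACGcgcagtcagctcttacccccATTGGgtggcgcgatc
H2-D1 (chr17:35262844-35263093): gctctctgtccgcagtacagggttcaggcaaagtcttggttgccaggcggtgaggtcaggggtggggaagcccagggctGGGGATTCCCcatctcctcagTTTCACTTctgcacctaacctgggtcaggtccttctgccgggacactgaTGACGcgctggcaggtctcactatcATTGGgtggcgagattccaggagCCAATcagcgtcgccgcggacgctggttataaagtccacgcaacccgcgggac
B2m (chr2:122147437-122147686): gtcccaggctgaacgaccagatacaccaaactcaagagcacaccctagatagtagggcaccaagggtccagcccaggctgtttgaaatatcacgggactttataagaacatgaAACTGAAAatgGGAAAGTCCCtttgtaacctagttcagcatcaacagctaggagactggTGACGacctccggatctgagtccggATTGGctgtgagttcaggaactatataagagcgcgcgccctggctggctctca

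Promoter windows were held for 8 of the 10 genes (RefSeq, GRCm38.p6). Searched on both strands were an NF-kB pattern (GGG, any pair of bases, TT, any base, CC), an interferon regulatory factor core AANNGAAA, the CCAAT box and the core TGACG of the cyclic AMP response element. The NF-kB pattern and the interferon regulatory factor core were found before H2-K1, H2-D1 and B2m and before none of the other 5, where 4.11% and 21.3% of 32851 promoter windows of the same length hold them. The letters of the interferon regulatory factor core were set after these windows had been read. Its matches were thus known in advance and cannot be read against the 21.3%. H2-K1 and H2-D1 carry both motifs in the same order, and the longest stretch identical in both windows is 47 bases. The matches before these similar genes are therefore not independent of each other. The CCAAT box was found before 6 of the 8 genes (33.8% of all windows) and TGACG before 5 (17.8%). Each was found in the stretch between Psmb9 and Tap1, where the same site counts for both genes. The counts are of genes and the shares are of windows, so they are not alike. These matches describe letters in these windows and say nothing of a factor's binding.

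The 6 libraries held 16984561 to 17625991 estimated counts each, and the 10 genes had between 814 and 113976 counts in a library. All 6 macrophage markers were present (Adgre1, Csf1r, Cd68, Mertk, Lyz2 and Cd14), with a summed level of 15748 to 20320 CPM in stretched and 17670 to 27759 CPM in static libraries. Lyz2 made up most of that sum. Mertk passed the test as higher (55.8 to 90.1 CPM in stretched, 33.6 to 42.8 CPM in static libraries), and no other of the 6 passed. Stretched libraries lay above static ones for Cd68 (1358 to 1417 against 655 to 1056 CPM) and below them for Adgre1 (1551 to 2159 against 2271 to 3371 CPM). CPM are counts scaled to the library total, after TMM factors have adjusted those totals for differences in composition. Static 3 stood apart. It correlated with the other static libraries at 0.95 and 0.954, where those correlated at 0.991 with each other (log2 CPM across genes). Its 8 neutrophil markers summed to 12944 CPM, against 3437 and 5098 CPM in static 1 and 2 and 4094 to 7553 CPM in stretched libraries. Dendritic cell markers summed to 26.2 to 47.6 CPM in stretched and 9.87 to 21.3 CPM in static libraries. Ccr7, the chemokine receptor of migrating dendritic cells and also made by activated macrophages, held 22.6, 37.4 and 19.9 CPM of it in stretched and 3.95, 7.49 and 10.9 CPM in static libraries. Ccr7 passed as higher, and no other gene of that list passed. The defining markers Xcr1, Clec9a, Flt3 and Zbtb46 each stayed below 5 CPM, and Cd209a was at 0 in 3 libraries. Epithelial markers summed to 38.8, 34.0 and 19.2 CPM in stretched and 10.4, 13.9 and 13.6 CPM in static libraries, and most of that sum was Epcam, which rose, while Krt8 was at 0 in 4 libraries. Stromal markers summed to 4703 to 6713 CPM in stretched and 3586 to 4872 CPM in static libraries, and none of the 5 passed the test. Monocyte markers summed to 2257, 2069 and 1944 CPM in stretched and 1489, 1334 and 2247 CPM in static libraries, and none of the 5 passed. Of these, Ly6c2 had 542, 870 and 778 CPM in stretched and 243, 370 and 1096 CPM in static libraries. Whether these markers bear on the class I values was not tested. In bulk RNA, fewer cells of a type and less RNA per cell cannot be told apart.

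Of the 10 genes, Tap1 and Tapbp rose with exosomes of stretched cells, none fell and 8 did not pass the test (adjusted p under 0.05, edgeR quasi-likelihood test over 12892 genes). Over all genes tested, 6.55% passed in that direction and 5.38% in the other. The point estimate was positive for 9 of the 10 genes, and the median log2 fold change was 0.63 against -0.002 over all genes. In TMM-scaled CPM, stretched libraries lay wholly above static ones for 7 genes, which are H2-K1, H2-D1, B2m, Tap1, Tap2, Tapbp and Psmb9, where 18.5% of all tested genes did the same and 18.2% lay wholly below. In FPKM (counts scaled to transcript length and library total, without TMM factors), only H2-K1, Tap1 and Tapbp stayed apart. The share of all genes that lay apart in FPKM was not computed, so this count has no background to be read against. In FPKM, stretched 1 had 1727 against 1781 in static 3 for H2-D1 and 61.8 against 64.8 for Tap2. Against static 2 it had 5987 and 6014 for B2m and 86.5 and 89.5 for Psmb9. At an unadjusted p under 0.05, 6 of the 10 were higher and 0 lower, against 16.5% and 15.2% of all genes. As a share of each library's total counts, without TMM factors, the 10 genes together took 1.06%, 1.56% and 1.17% in stretched libraries and 0.757%, 0.991% and 1.03% in static libraries. For this sum the lowest stretched library thus exceeded the highest static one by a small margin, and B2m alone gave 0.426% in stretched 1. The sum does not speak for each gene, since the share of H2-D1 was 0.274% in stretched 1 and 0.284% in static 3.

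**Figure D1:**
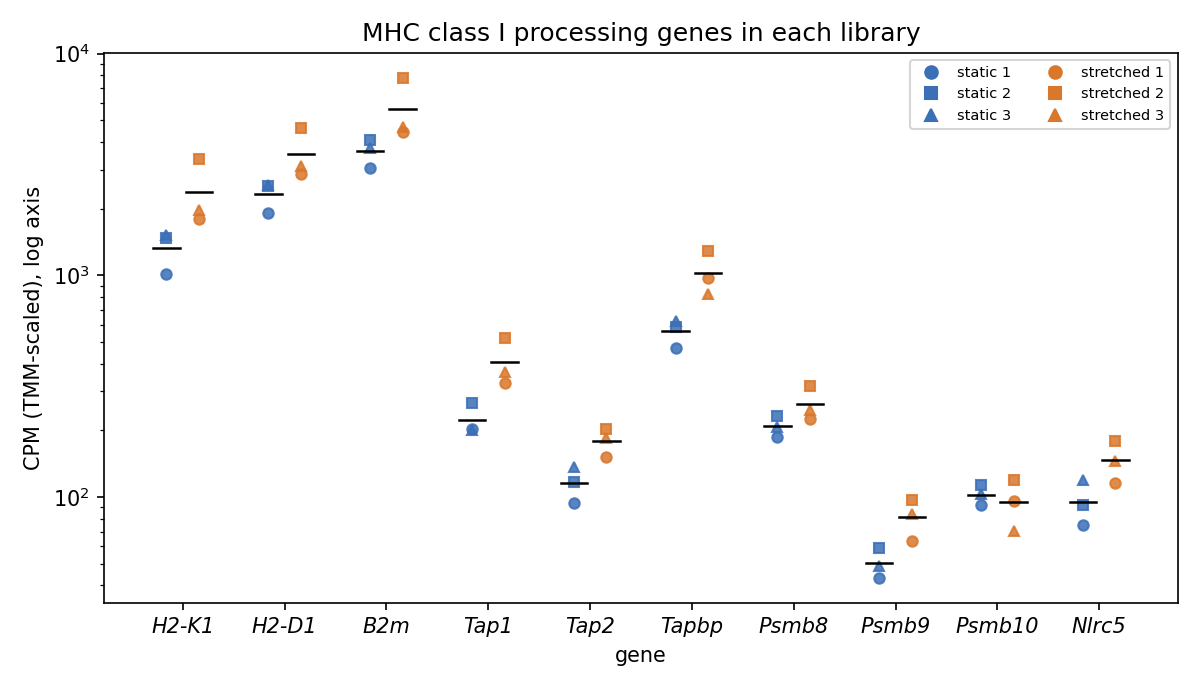
Level of each gene in each of the 6 libraries, in TMM-scaled CPM on a log axis, with black lines at the group means. For Tapbp the stretched libraries lay at 823 to 1292 CPM and the static ones at 469 to 625 CPM, while for Psmb10 the groups overlapped.

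The heavy chain genes were among the most abundant genes of these cells. H2-K1 (gene identifier 14972, chr17:33996012-34000619, minus strand) had 1790, 3347 and 1964 CPM in stretched libraries and 1015, 1476 and 1513 CPM in static libraries. The groups did not overlap, but stretched 2 alone was far above the rest. The log2 fold change was 0.83 ± 0.31 (SE) and did not pass (adjusted p = 0.112, edgeR), and it fell to 0.47 without stretched 2. H2-D1 (gene identifier 14964, chr17:35263094-35267497, plus strand) had 2857, 4595 and 3105 CPM in stretched and 1901, 2527 and 2566 CPM in static libraries, a log2 fold change of 0.59 ± 0.27 (adjusted p = 0.174, edgeR). It was 0.33 without stretched 2. H2-D1 showed the same library order as H2-K1 within the static group, with static 1 lowest and static 2 and 3 close together. As a share of both heavy chains per length (FPKM, the count scaled to transcript length and library total), H2-K1 made up 39.8%, 43.5% and 40.0% in stretched and 36.0%, 38.1% and 38.3% in static libraries. That share was looked at after the values had been seen and was not tested. The heavy chain genes resemble each other, and the estimated count was not whole in 2 of 6 libraries for H2-K1 and in 4 of 6 for H2-D1 (off by more than 0.015), so some reads were divided between similar genes. How many reads that concerned was not measured.

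B2m (gene identifier 12010, chr2:122147687-122153082, plus strand), the light chain shared by all classical class I molecules, was the most abundant of the 10 and ranked 7 of all genes by mean FPKM. It had 4429, 7758 and 4677 CPM in stretched libraries and 3039, 4074 and 3745 CPM in static libraries. The groups did not overlap in CPM, yet stretched 1 and stretched 3 lay closer to static 2 than to stretched 2. The log2 fold change was 0.64 ± 0.30 (adjusted p = 0.187, edgeR) and 0.31 without stretched 2. Per length, B2m was 2.09, 2.14 and 2.02 times the sum of H2-K1 and H2-D1 in stretched and 2.29, 2.24 and 2.0 times in static libraries, and these ratios overlapped. B2m overlaps Patl2 on the other strand in the GENCODE annotation, and Patl2 did not exceed 0.181 CPM in any library.

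The peptide transporter and tapasin included both genes that passed. Tap1 (gene identifier 21354, chr17:34187556-34197225, plus strand) had 326, 522 and 367 CPM in stretched libraries and 202, 267 and 200 CPM in static libraries. Every stretched library exceeded every static one. Its level averaged 405 ± 103 against 223 ± 38.1 CPM (SD, n = 3 each), and the log2 fold change was 0.86 ± 0.22 (edgeR adjusted p = 0.0486). Its partner Tap2 (gene identifier 21355, chr17:34204479-34216321, plus strand) had 151, 203 and 184 CPM in stretched and 94.6, 117 and 137 CPM in static libraries. These groups did not overlap in CPM either, and the log2 fold change of 0.62 ± 0.19 missed the threshold (edgeR adjusted p = 0.0669). Tap2 passed without static 3 (edgeR adjusted p = 0.0195). Per length, Tap1 was 1.81, 2.16 and 1.67 times Tap2 in stretched and 1.79, 1.91 and 1.22 times in static libraries, and these ratios overlapped.

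Tapbp (gene identifier 21356, chr17:33919478-33929290, plus strand), the bridge between transporter and class I molecule, had 970, 1292 and 823 CPM in stretched libraries and 469, 588 and 625 CPM in static libraries. The groups did not overlap. It averaged 1028 ± 240 against 561 ± 81.5 CPM (SD, n = 3 each), with a log2 fold change of 0.88 ± 0.23 (edgeR adjusted p = 0.0483). With the replicate number as a block it did not pass (edgeR adjusted p = 0.0584), in a fit where 5.86% of all genes were higher and 3.16% lower. The adjusted p-values of Tap1 and Tapbp lie just inside the threshold, and neither gene held it in most fits with 1 library left out. Tap1 passed without static 3 (edgeR adjusted p = 0.0487) and had 0.0764 to 0.165 in the other 5 such fits, and Tapbp passed without static 3 (edgeR adjusted p = 0.0257) and had 0.0542 to 0.172 in the others. Across every alternative tried, Tap1 had adjusted p-values between 0.00441 and 0.165 and Tapbp between 0.00214 and 0.172. Zbtb22, which overlaps Tapbp on the same strand in the GENCODE annotation, had 29.0 to 40.0 CPM.

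None of the 3 inducible proteasome subunits passed the test. Psmb9 (gene identifier 16912, chr17:34182030-34187330, minus strand), the subunit that replaces Psmb6, had 63.3, 97.5 and 84.4 CPM in stretched libraries and 43.4, 59.0 and 49.1 CPM in static libraries. The groups did not overlap in CPM, and the log2 fold change was 0.69 ± 0.20 (edgeR adjusted p = 0.059). With the replicate number as a block it passed (edgeR adjusted p = 0.0397). Psmb8 (gene identifier 16913, chr17:34198195-34201454, plus strand), which replaces Psmb5, had 225, 318 and 246 CPM in stretched and 186, 233 and 207 CPM in static libraries. Static 2 exceeded stretched 1, so the groups overlapped. Each stretched library exceeded the static one of the same number, but the labels do not say that these are paired. The log2 fold change of 0.33 ± 0.18 did not pass (edgeR adjusted p = 0.245), and it was 0.15 without stretched 2. Psmb10 (gene identifier 19171, chr8:105935728-105938392, minus strand), which replaces Psmb7, had 95.8, 120 and 70.4 CPM in stretched and 91.8, 113 and 103 CPM in static libraries. It was the 1 gene with a negative estimate, at -0.10 ± 0.20 (edgeR adjusted p = 0.766), and its estimate was 0.043 without stretched 3. No difference between these 3 fold changes was tested.

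Each inducible subunit was also set against the constitutive subunit whose place it takes, as a ratio of FPKM within each library, which does not depend on how libraries are scaled. Psmb8 over Psmb5 was 1.5, 2.09 and 1.79 in stretched libraries and 1.26, 1.66 and 2.26 in static libraries. The highest ratio belonged to static 3, in which Psmb5 was lowest (61.8 CPM against 92.5 to 102 CPM in the others). The log2 ratio differed by 0.081 between groups (two-sided exact permutation test, p = 0.9). Psmb9 over Psmb6 was 0.474, 0.550 and 0.725 in stretched and 0.410, 0.527 and 0.650 in static libraries, a log2 difference of 0.14 (exact permutation p = 0.6). It was higher in stretched in all 3 same-numbered pairs (exact sign-flip p = 0.25, the smallest that 3 pairs allow). Psmb10 over Psmb7 was 0.886, 1.15 and 0.663 in stretched and 0.619, 0.751 and 1.18 in static libraries, a log2 difference of 0.10 (exact permutation p = 0.8). All 3 ratios overlapped between groups, and p adjusted over the 3 was 0.9 for each. With 3 libraries a group this test cannot go below 0.1, and the SD of the log2 ratios within a group was 0.24 to 0.48, so differences of that size were not detectable. In the static group every ratio was lowest in static 1 and highest in static 3.

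**Figure D2:**
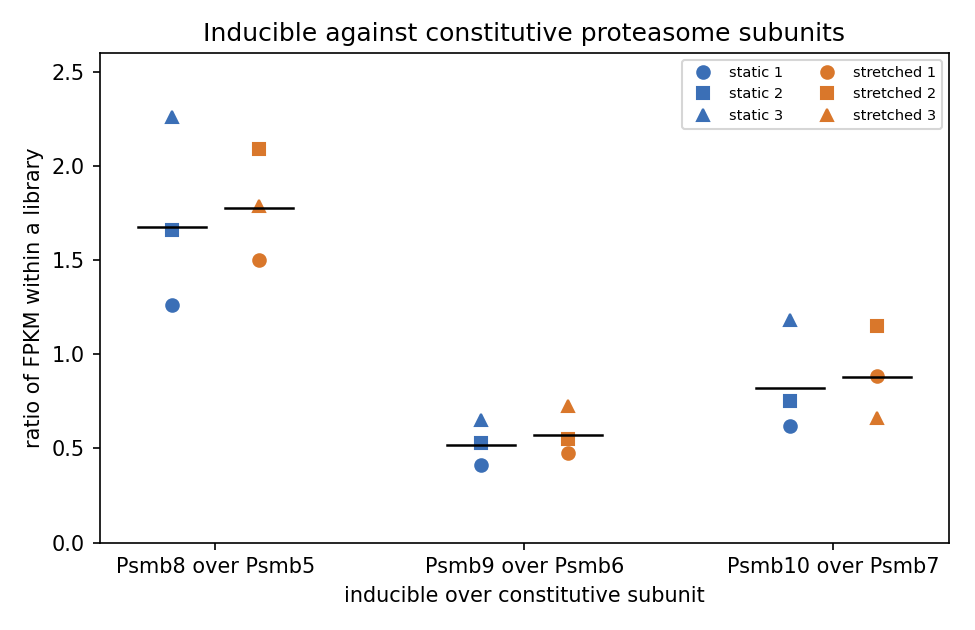
Ratio of inducible to constitutive proteasome subunit in each library, from FPKM, with black lines at the geometric means. The groups overlap for all 3 pairs, and static 3 holds the highest Psmb8 over Psmb5 ratio at 2.26.

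Nlrc5 (gene identifier 434341, chr8:94434335-94527272, plus strand), the class I transactivator, was the least abundant of the 10 per length. It had 116, 179 and 145 CPM in stretched libraries and 75.3, 92.2 and 119 CPM in static libraries. Static 3 exceeded stretched 1, so the groups overlapped. As for Psmb8, each stretched library exceeded the static one of the same number, with no pairing stated in the labels. The log2 fold change was 0.62 ± 0.22 (edgeR adjusted p = 0.104), and without static 3 it was 0.80 (edgeR adjusted p = 0.0268).

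Per length, the order of mean FPKM over the 6 libraries was B2m at 6374, H2-D1 at 1809, H2-K1 at 1197, Tapbp at 298, Psmb8 at 217, Tap1 at 109, Psmb9 at 92.9, Psmb10 at 87.0, Tap2 at 62.3 and Nlrc5 at 17.3. B2m exceeded H2-D1, H2-K1 exceeded Tapbp, Psmb8 exceeded Tap1 and Tap2 exceeded Nlrc5 without overlap of their ranges over libraries. The ranges of the other neighbours in this order overlapped, although H2-D1 was above H2-K1, Tapbp above Psmb8 and Tap1 above Psmb9 in each of the 6 libraries. Psmb9 and Psmb10 changed order, with Psmb9 the higher in 3 of 6 libraries.

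Single libraries shaped the size of these differences. Stretched 2 was the highest stretched library for all 10 genes in CPM, where it was highest for 34.3% of all tested genes, and static 1 was the lowest static library for 9 of the 10 genes (all but Tap1), where it was lowest for 29.2% of all tested genes. Stretched 2 also had the lowest TMM factor of the 6 libraries (0.846, the others 0.961 to 1.11), which raises its CPM. The share of its total counts that the 10 genes took without TMM factors, given above, was the highest as well. The median log2 fold change of the 10 genes was 0.45 without stretched 2 and 0.51 without static 1, and 0.71 without static 3. Scaling by library size alone lowered the median of all genes to -0.19 and that of the 10 genes to 0.42, and left 9 of 10 estimates positive. The number of the 10 genes past the threshold in edgeR was 4 without static 3 (Tap1, Tap2, Tapbp and Nlrc5), in a fit where 16.1% of all genes passed as higher and 15.4% as lower. It was 0 without stretched 1, stretched 2, stretched 3, static 1 or static 2, where 6, 3, 5, 4 and 5 genes were higher at an unadjusted p under 0.05. The share of all genes at that unadjusted threshold was not computed for these fits (16.5% with all libraries), so those counts have no background to be read against. Few genes of any kind passed as higher in those fits, at 1.02%, 0.252%, 4.27%, 0.489% and 0% of all genes, so a count of 0 says little about the 10 genes. DESeq2 with all libraries called 5 (H2-K1, Tap1, Tap2, Tapbp and Psmb9), where it called 10.8% of all genes as higher and 9.96% as lower.

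**Figure D3:**
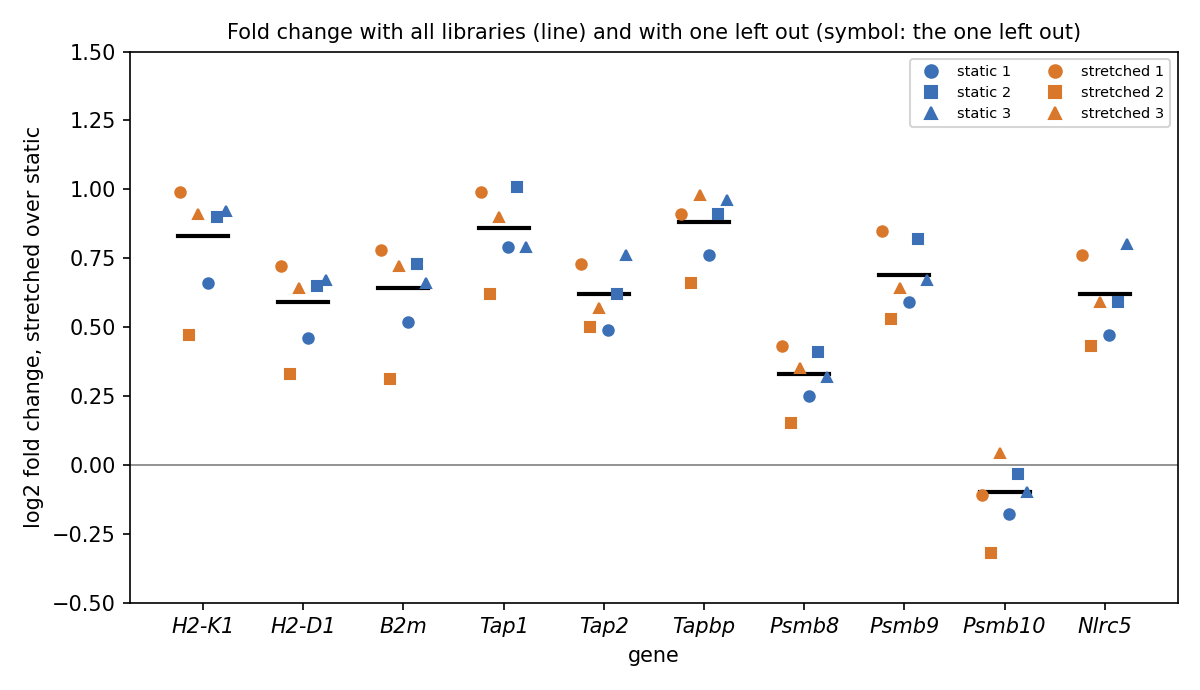
Log2 fold change of each gene with all 6 libraries (black line) and with 1 library left out (symbols, named by the library left out). Without stretched 2, H2-K1 falls from 0.83 to 0.47 and B2m from 0.64 to 0.31, and 9 of 10 genes stay above 0 in that fit.

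The deposited transcript table lists 31 transcripts of the 10 genes, of which 28 were tested. None passed the test in edgeR, where 10 had an unadjusted p under 0.05 and a positive estimate and 0 a negative one. Only 0.00338% of 29604 transcripts passed as higher in that fit, and 7.85% had an unadjusted p under 0.05 as higher. B2m, H2-D1, Tap2 and Psmb8 had 1 transcript each, so nothing can be said of their forms. Tapbp had 2, and the more abundant one made up 61.0%, 61.8% and 59.3% of its reads in stretched and 59.6%, 59.6% and 58.1% in static libraries. Both Tapbp forms leaned the same way, at 0.89 ± 0.22 and 0.79 ± 0.20 on the log2 scale (edgeR adjusted p = 0.136 and 0.144). The main H2-K1 transcript held 89.2% to 90.7% of that gene's reads in every library. The minor form of Psmb9 held 29.7%, 34.6% and 29.2% in stretched and 31.7%, 23% and 23.9% in static libraries, which overlapped. The estimates for Nlrc5 were unstable, since its curated transcript held from 10.7% to 49.8% of the gene's reads among static libraries.

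Around these 10 genes, 40 others of the pathway were examined, and 6 rose, 1 fell and 33 did not pass (edgeR, adjusted over all 12892 genes). Of all genes tested, 6.55% rose and 5.38% fell in that fit. Among 11 non-classical class I genes, 5 rose and none fell, with a median log2 fold change of 1.27. H2-T22, a ligand of some gamma delta T cells, had 344, 715 and 612 CPM in stretched and 179, 254 and 190 CPM in static libraries (1.42 ± 0.29, edgeR adjusted p = 0.0284). Mr1, which presents microbial vitamin B metabolites to mucosal-associated invariant T cells, had 26.7, 26.3 and 35.9 against 9.02, 6.83 and 11.2 CPM (1.72 ± 0.22, edgeR adjusted p = 0.0145). Stretched 2 was not the highest for Mr1, unlike for the 10 genes above. H2-Q7, which encodes a Qa-2 molecule, rose by 2.0 ± 0.52 (edgeR adjusted p = 0.048), with stretched 2 at 294 CPM and the other stretched libraries at 89.2 and 107 CPM. H2-T10, a close relative of H2-T22, and H2-Q10, which encodes a secreted form, rose by 1.27 ± 0.31 and 1.74 ± 0.37 (edgeR adjusted p = 0.0425 and 0.0314), the latter at no more than 5.06 CPM in any library. The estimated counts of H2-Q7 and H2-T10 were not whole in 6 of 6 libraries and those of H2-T22 in 5 of 6, so reads were divided among similar genes and single values are uncertain. The number of non-classical genes that passed was 3, 0 and 1 without stretched 1, 2 and 3 (1.02%, 0.252% and 4.27% of all genes higher) and 0, 0 and 7 without static 1, 2 and 3 (0.489%, 0% and 16.1% of all genes higher). Their median log2 fold change was 0.66 without stretched 2, and that of H2-Q7 was 1.25. At an unadjusted p under 0.05, 9, 5, 9, 7, 8 and 8 of them were higher in the same fits, for which the matching share of all genes was not computed. With all libraries 9 of the 11 were higher at that threshold, against 16.5% of all genes.

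The peptide-loading chaperones and trimming peptidases leaned the other way, with 8 of 10 estimates negative, a median of -0.25 and 0 past the threshold in edgeR. At an unadjusted p under 0.05 in edgeR, 3 were lower and 0 higher, where 15.2% of all genes were lower and 16.5% higher. DESeq2 called 1 lower, where it called 9.96% of all genes lower, so that count is near the share of all genes. Calr, the calreticulin gene, had 794, 776 and 1212 CPM in stretched and 1286, 1084 and 917 CPM in static libraries (-0.24 ± 0.24, edgeR adjusted p = 0.536), and Pdia3, its disulfide isomerase partner, lay at -0.12 ± 0.20 (edgeR adjusted p = 0.712). Without static 3, 5 of these 10 genes were lower and 1 higher, in the fit where 15.4% of all genes were lower and 16.1% higher. Of 7 proteasome partners none passed in edgeR. At an unadjusted p under 0.05 in edgeR, 1 was higher and 1 lower, and DESeq2 called 1 lower. The shares of all genes beside these counts are those just given. The proteasome activator genes Psme1 and Psme2 had 175 to 243 and 249 to 303 CPM in stretched libraries and 141 to 196 and 230 to 323 CPM in static ones. Their log2 fold changes were 0.24 ± 0.19 and 0.052 ± 0.18 (edgeR adjusted p = 0.406 and 0.873).

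Among 12 transcription factor genes tied to class I promoters, 1 rose and 1 fell in edgeR, where 6.55% of all genes rose and 5.38% fell. Their median log2 fold change was 0.32. The gene that fell, Nfyc, a subunit of the factor NF-Y that binds the CCAAT box, had 26.0, 21.2 and 23.9 CPM in stretched and 44.9, 44.5 and 45.6 CPM in static libraries. Its libraries were tightly grouped, and it fell by 0.92 on the log2 scale (SE 0.13, edgeR adjusted p = 0.0153). The other NF-Y subunit genes Nfya and Nfyb, chosen after the values had been seen, had estimates of 0.41 ± 0.12 and 0.26 ± 0.14 and did not pass (edgeR adjusted p = 0.0721 and 0.253). Irf1, an interferon regulatory factor also chosen in this way, had 175, 270 and 203 CPM in stretched and 74.4, 93.1 and 175 CPM in static libraries (0.92 ± 0.33, edgeR adjusted p = 0.104), with static 3 level with stretched 1.

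**Figure D4:**
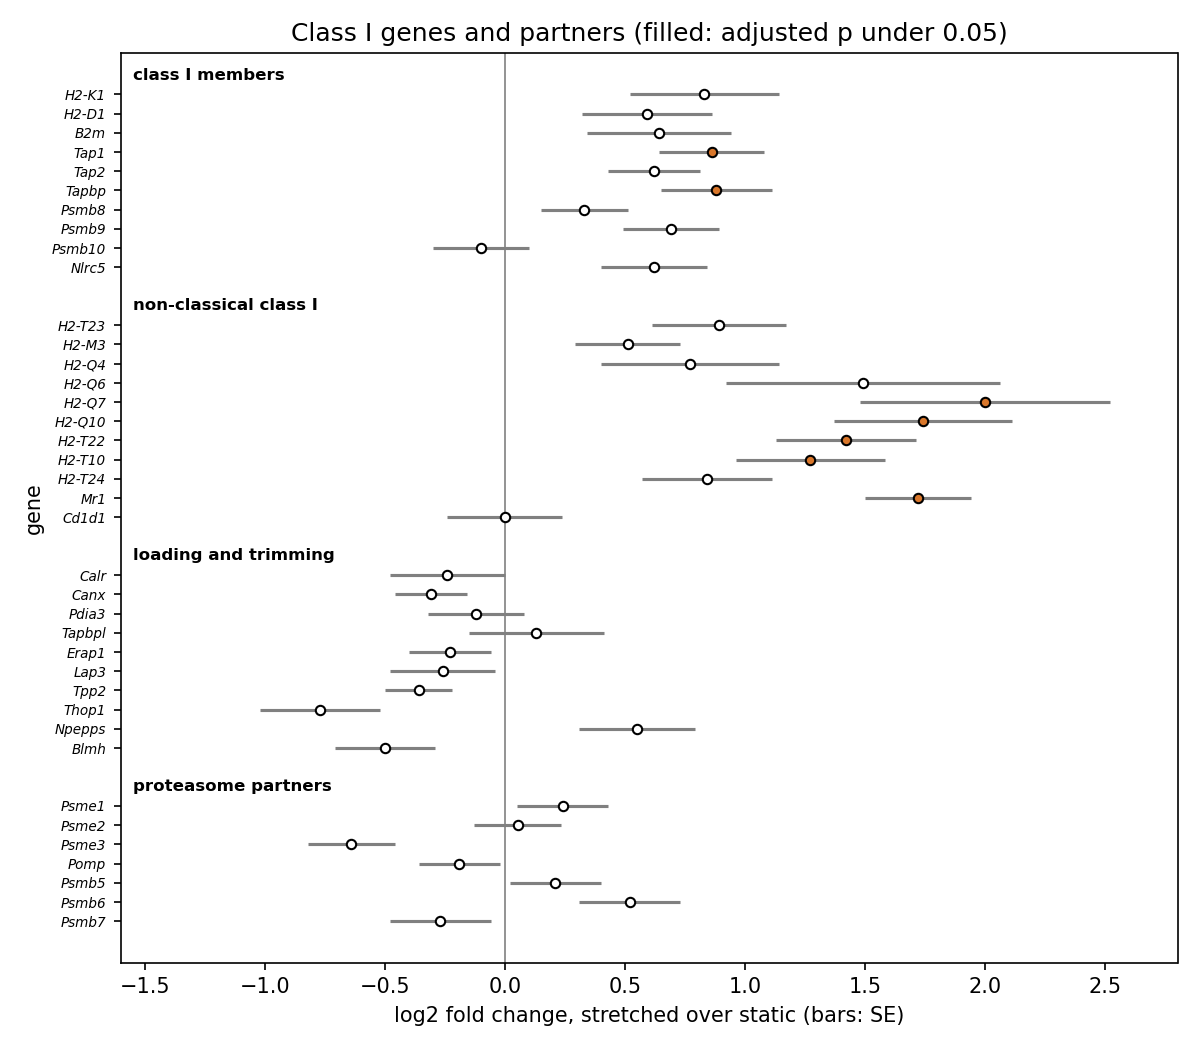
Log2 fold change, stretched over static, of the 10 class I genes and of 28 other pathway genes in 3 lists, with SE bars. Filled points passed the test (2 of the 10 and 5 of the 28), and non-classical class I genes reach the highest values, up to 2.0 for H2-Q7.

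Outside these lists, the 5 genes whose log2 CPM over the 6 libraries ran most like the mean standardised profile of the 10 genes were Rtp4 (Pearson r = 0.994), Fcer1g (r = 0.994), Syf2 (r = 0.993), Pcf11 (r = 0.992) and Il12rb1 (r = 0.989). Fcer1g, the signalling chain of several Fc receptors, had 1606, 2079 and 1587 CPM in stretched and 1168, 1390 and 1363 CPM in static libraries (0.43 on the log2 scale, edgeR adjusted p = 0.193). Rtp4, an interferon-induced gene, had 316, 445 and 340 CPM against 249, 307 and 286 CPM (edgeR adjusted p = 0.191). In each of them stretched 2 was highest and static 1 lowest. All these r values rest on the same 6 libraries in 2 groups, and 110 of 12842 genes had r above 0.95, so they are given as a description only.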

How the data were processed

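RNA-seq of 6 libraries was analysed. Per the labels' protocols, a SMARTER mRNA-Seq kit was used on total RNA. The deposited gene and transcript tables hold estimated counts, not normalised, per the file headers, and a second value without a named unit. That value equals the count per effective length and library total (the implied length varied by a median of 1.23% between libraries), and it is treated here as the authors' deposited FPKM. GRCm38 and mm10 are named in the submitters' processing notes. For strandedness, aligner and counting tool nothing is stated in those sources. Reads of a gene and of one overlapping it on the other strand therefore could not be told apart.

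Counts were rounded, genes kept by filterByExpr (minimum count 10; 12892 tested, 4014 not), and the quasi-likelihood test of edgeR 4.0.16 (in R 4.3.3, with TMM) was run between groups, adjusted by Benjamini-Hochberg over all genes with a threshold of 0.05. The test was checked on simulated data. The SE was derived from the F statistic. Alternatives were DESeq2 1.42.0, limma 3.58.1 on log2(FPKM + 1) or log2(FPKM + 0.1), other scalings, no filter, a replicate block and leaving out each library. The replicate numbers come from the titles, and deviations of same-numbered libraries from their group means correlated at 0.29, 0.18 and 0.18. Differently numbered libraries had -0.24 to 0.11, and deviations within a group cancel out, so these values are not independent. The numbers were taken as a possible pairing. The main test does not use it, and the replicate block is an alternative. Library pairs within a group differed by more than sampling noise.

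The 10 genes and all lists were chosen with earlier results of these data known. Named were the 10 genes, pathway genes past the threshold or otherwise the 2 most abundant of a list, and the 5 genes most alike in profile. The letters of the interferon regulatory factor motif were set after the promoter windows had been read. Protein sequences were not used here, and 1 gene that the naming rule selects and 1 of the motifs searched are not reported here.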

Additional observations from a re-analysis of the deposited data

How the results depend on the processing

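Of 130 refits of the 10 genes' fold changes, 108 kept their direction and their side of the threshold, 15 lost the call, 6 gained it and 1 changed sign (Psmb10, 0.043 without stretched 3, with -0.32 without stretched 2 at the other end). The number of the 10 genes called higher was 2 with all libraries, 1 with library size alone, with limma on log2(FPKM + 1) or log2(FPKM + 0.1) and with no low-count filter, 5 with DESeq2, and 0 to 4 with 1 library left out. None was called lower in any of these fits, and 2 were called higher with the replicate block. For the 40 pathway genes, 6 were higher, against 11 with DESeq2, 3 with limma at either pseudocount and 0 to 11 with 1 library left out. Among them 1 was lower, against 3 with library size alone, DESeq2 or limma at either pseudocount and 0 to 8 with 1 library left out. Over all genes, 844 were higher, against 556 with library size alone, 1398 with DESeq2, 523 and 529 with limma at pseudocounts of 1 and 0.1, and 0 to 2095 with 1 library left out. Lower genes numbered 694, against 1297, 1284, 1197 and 1203 in the same order, 408 with the replicate block and 0 to 2011 with 1 library left out. No transcript of the 10 genes was called in any edgeR fit. With 1 library left out, the log2 difference of Psmb8 over Psmb5 ran from -0.13 to 0.30 (-0.037 without stretched 2, -0.13 without static 1). That of Psmb9 over Psmb6 ran from -0.029 to 0.30 (-0.026 without stretched 3, -0.029 without static 1), and that of Psmb10 over Psmb7 from -0.10 to 0.36 (-0.095 without stretched 2, -0.10 without static 1). With the replicate block the ratios had exact sign-flip p-values of 1, 0.25 and 1, where 0.25 is the smallest possible. Apart from Tapbp and Psmb9, the block changed no call among the 10 genes. The causes were not tested. With 3 libraries a group, calls near the threshold depended on single libraries.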
